A study of Mus musculus with 127 samples.

Results

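Within class B of the Flvcr-deleted cells, 4 of 16 cells carried very little globin transcript, and these 4 low-globin cells are described here against the other 12, the globin-rich cells. The 16 cells belong to a set of 127 single-cell libraries from the marrow of C57BL/6J mice. Flvcr is a cell surface transporter known for exporting heme. The low-globin and globin-rich cells share 1 genotype, Flvcr deleted, and 1 capture chip. The 10 wild-type class B cells of another chip, also from C57BL/6J mice, serve as a second set to compare with, so that genotype and chip cannot be told apart in that comparison. Class A cells of both genotypes enter only a description of likeness at the end. So do class B cells of mice treated with erythropoietin (EPO), which were on other chips again. All cells are labelled erythroblast, and the letter of the class label groups cells of 1 chip by their Ter119 fluorescence in the capture chamber. The labels do not say how or in which cells Flvcr was deleted, and they name no animal. Flvcr's own transcript, which the table names Mfsd7b (NM_001081259), was listed at 0 in all 16 Flvcr-deleted and all 10 wild-type class B cells, so it checks neither label.

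The split was made on a measured value, the level of the adult beta globin Hbb-b1 (NM_001278161), with low-globin cells below 12 and globin-rich cells at 12 or more. Every level given here is log2(RPKM + 1), where RPKM is a read number adjusted for transcript length and for the reads sequenced from the cell, unless another unit is named. The low-globin cells were DB13 at 8.26, DB01 at 8.31, DB03 at 10.11 and DB10 at 10.99. The globin-rich cells began with DB14 at 15.70, DB11 at 15.79, DB04 at 15.96 and DB15 at 16.65 and ended with DB09 at 17.96. No cell lay in the gap of 4.71 around the limit. Because the cells were chosen on this value, because each cell is 1 library and because no animal is named, the differences below are descriptions of these cells and carry no p-value.

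An erythroblast is a nucleated red cell precursor. As it matures it fills with hemoglobin, made of alpha and beta globin chains that each hold a heme. Alas2 catalyses the first step of heme synthesis in red cells. Early precursors are rich in ribosomes and mitochondria and divide quickly, and these functions are shut down as globin comes to dominate the transcripts. GATA1 is the transcription factor that directs many of the genes involved.

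Beta globin, on which the split was made, and alpha globin and Alas2, which were called lower with it, are the genes that the comparison starts from, so the 250 bases before their start sites are shown, with the letters that GATA factors are known to bind, AGATAA or TGATAA on either strand, in capitals. The sequences are from RefSeq promoters on GRCm38.p6: Hbb-bs at chr7:103827929-103828178 on the minus strand, Hba-a1 at chr11:32283422-32283671 on the plus strand and Alas2 at chrX:150547167-150547416 on the plus strand. Each window held 1 match, which begins 210 bases before the start of Hbb-bs, 183 bases before that of Hba-a1 and, on the opposite strand, 86 bases before that of Alas2. Of 32851 promoter windows of this length, 16.6% held at least 1 such match, and a match is a description of the letters only.
Hbb-bs promoter: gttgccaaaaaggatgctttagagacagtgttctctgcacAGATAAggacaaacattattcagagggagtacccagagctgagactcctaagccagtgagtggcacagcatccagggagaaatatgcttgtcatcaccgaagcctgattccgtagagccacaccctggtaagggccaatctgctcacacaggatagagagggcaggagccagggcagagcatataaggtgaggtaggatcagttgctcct
Hba-a1 promoter: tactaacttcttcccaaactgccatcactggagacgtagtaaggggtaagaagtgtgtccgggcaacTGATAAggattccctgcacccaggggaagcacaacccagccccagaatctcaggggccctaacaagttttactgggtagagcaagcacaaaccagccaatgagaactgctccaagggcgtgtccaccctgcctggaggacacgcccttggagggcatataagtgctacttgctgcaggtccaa
Alas2 promoter: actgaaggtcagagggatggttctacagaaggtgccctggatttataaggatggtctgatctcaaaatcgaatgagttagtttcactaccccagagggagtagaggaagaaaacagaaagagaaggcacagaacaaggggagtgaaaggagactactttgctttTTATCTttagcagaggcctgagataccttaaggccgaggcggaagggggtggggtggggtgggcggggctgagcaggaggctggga

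The low-globin cells were not shallow libraries. They had 2455 to 3452 detected genes (RPKM of at least 1), against 645 to 2294 in globin-rich cells (median 968.5) and 1500 to 3746 in wild-type class B cells. Their estimated reads were 2.21 to 3.94 M, against 0.750 to 4.84 M in globin-rich and 2.60 to 4.95 M in wild-type class B cells. Globin genes took 0.320% to 2.71% of the summed RPKM in low-globin cells, 48.2% to 96.8% in globin-rich cells (median 93.6%) and 28.9% to 89.2% in wild-type class B cells. Genes detected and globin share therefore moved together with the split, and their part in the differences was not tested. The Ter119 fluorescence of the labels, which the split did not use, was 0.313 to 0.436 in low-globin cells and 0.321 to 0.494 in globin-rich cells. These ranges overlap over most of their length.

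**Figure D1:**
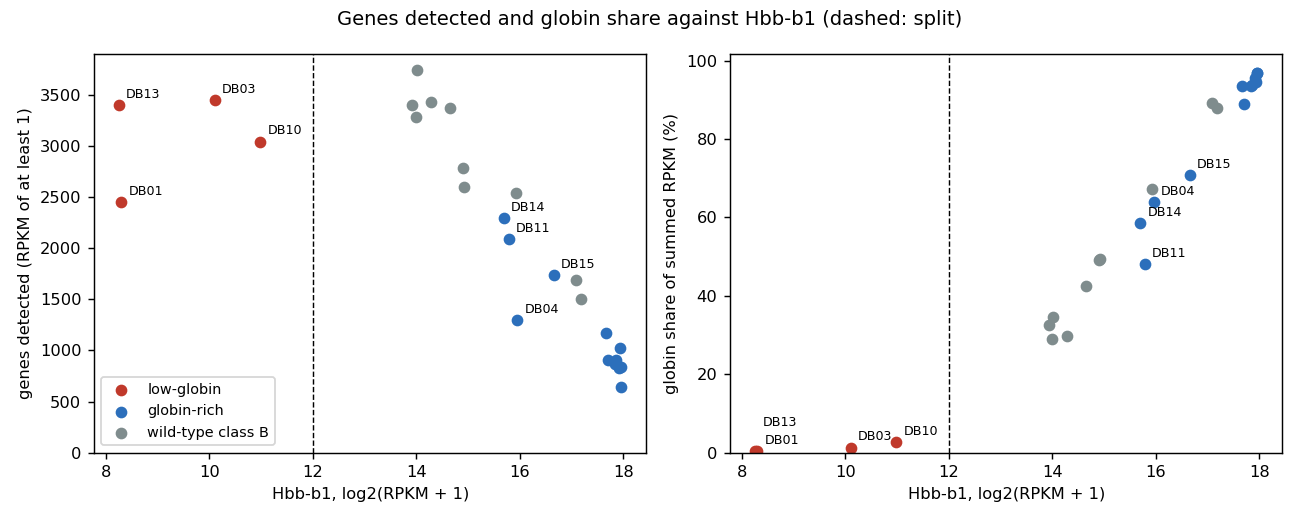
Genes detected per cell (left) and the globin share of summed RPKM in percent (right) against the Hbb-b1 level, 1 point per cell, for 4 low-globin, 12 globin-rich and 10 wild-type class B cells; the dashed line is the limit of 12. The low-globin cells sit alone left of the line with 2455 to 3452 detected genes, and the globin-rich cells labelled by name are those below an Hbb-b1 level of 17.

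The comparison ran over 2400 genes with a mean level of at least 1 over the 16 cells. A gene was called higher or lower where the means differed by at least 1 and no cell of a set overlapped the other. By this rule 111 genes (4.62%) were higher and 12 (0.5%) lower in low-globin than in globin-rich cells, 123 (5.12%) in either direction. The median gene differed by 2.22, and 2053 of the 2400 differences were above 0. A gene listed at 0 in all globin-rich cells could pass the filter only with a mean of at least 4 in low-globin cells, so the higher calls are partly set by the filter. Any kept gene detected in no globin-rich cell passed only through the low-globin cells, so its difference from globin-rich cells was above 0 by the filter. The count of higher genes was 184 without DB01 and 177 without DB10. Scaling every cell to 1 sum without globins gave a median difference of 1.47. Group medians below are therefore to be set beside that of the median gene, and a group median near 0 lies below it. Signs against 0 are given as well.

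The same rule against wild-type class B cells called 160 genes (6.67%) higher and 57 (2.38%) lower in low-globin cells, 217 (9.04%) in either direction, with a median difference of 0.90. The genes were those chosen on the Flvcr-deleted class B cells alone, so genes found mainly in wild-type cells were left out. The balance of higher and lower calls and the median are therefore partly set by the filter. With every cell scaled to 1 sum without globins, that comparison gave 90 higher and 88 lower genes. The low-globin cells enter both comparisons, so the 2 are given side by side and not as independent results. The shares over all kept genes in both comparisons are the background for the counts of each list below.

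The 12 genes called lower than in globin-rich cells included the globin rows Hba-a1, Hba-a2, Hbb-b1, Hbb-bs, Hbb-bt, Hbb-b2 and Hbb-bh1, together with Alas2, Slc4a1, Cd24a and Gpx1. The adult globin rows of each kind are near-identical in sequence and share reads, so they stand for 1 alpha and 1 beta signal. The same holds in part for Hbb-bh1, an embryonic beta-like globin, whose level is uncertain for this reason. The split was made on Hbb-b1, so the lower calls of Hbb-b1 and of the beta rows that share its reads were set by the split. Cd24a, a surface antigen of maturing red cells, and Gpx1, a peroxidase, had differences of -1.49 and -1.11 that turned to 0.41 and 0.79 when every cell was scaled to 1 sum.

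Alpha globin followed the split that was made on beta globin. Hba-a1 (NM_008218) was at 2.07 in DB01, 3.47 in DB03, 9.87 in DB10 and 2.47 in DB13, against 15.91 to 18.83 in globin-rich cells (median 18.36) and 14.47 to 17.70 in wild-type class B cells (median 15.40). The sets did not overlap, and the difference from globin-rich cells was -13.41, larger than that of Hbb-b1 at -7.83. In DB01, DB03 and DB13 the level of alpha globin lay far below that of beta globin, whereas the levels of both were close in DB10.

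Alas2 (NM_001102446) was listed at 0 in all 4 low-globin cells, so it was detected in 0 of 4 (an exact, or Clopper-Pearson, 95% interval allows up to 60.2%). It was detected in 12 of 12 globin-rich cells, at 2.42 to 10.70 (median 8.20), and in 10 of 10 wild-type class B cells, at 4.43 to 10.34 (median 9.27). The lowest globin-rich level, 2.42, was that of DB11, and the next was 6.58 in DB04. No difference is given for a set that is listed at 0.

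A membrane protein of the red cell was also low. Slc4a1 (NM_011403), the anion exchanger band 3, was listed at 0 in DB01, DB10 and DB13 and stood at 1.00 in DB03, against 1.69 to 6.43 in globin-rich cells (median 3.75) and 4.88 to 6.78 in wild-type class B cells. The low-globin cells overlapped with neither other set. Of 19 kept membrane and skeleton genes 2 were called lower than in globin-rich cells and 4, Slc4a1, Epb4.2 and Icam4 among them, lower than in wild-type class B cells, with no gene called higher in either comparison. The group median was 0.05 against globin-rich cells, -0.06 without DB04 and -1.76 against wild-type class B cells, and scaling moved the first of these to 1.78 with 1 sum and -1.08 with 1 sum without globins.

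Part of the heme synthesis genes were called lower than in wild-type class B cells. Of 10 kept members 1, Alas2, was called lower than in globin-rich cells and 5 lower than in wild-type class B cells, where Alad, Uros and Urod were among those called, and none was called higher. Of all kept genes 0.5% and 2.38% were called lower in these comparisons. The median over the group was -0.59 against globin-rich cells, which turned to 0.64 with every cell scaled to 1 sum, and -4.03 against wild-type class B cells. Urod (NM_009478), which acts later in the pathway, was at 0 in DB01, 3.05 in DB03, 4.57 in DB10 and 0.28 in DB13. It was at 0 to 9.48 in globin-rich cells, which overlaps, and at 7.66 to 10.12 in wild-type class B cells, which does not. Hemgn (NM_053149), a nuclear protein of late erythroid cells, was at 0.00, 0.32, 3.73 and 1.22 in the same order of cells, against 0 to 9.00 in globin-rich cells and 8.39 to 10.66 in wild-type class B cells.

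None of 12 kept erythroid transcription factors was called in either direction in either comparison. With 5.12% and 9.04% of all kept genes called, 12 members are too few to set them apart from the background. The group median was 0.79 against globin-rich cells, which turned to -0.03 with 1 sum without globins and to -1.02 against DB14 and DB11, the 2 globin-rich cells with at least 2000 detected genes, and -0.90 against wild-type class B cells. Gata1 (NM_008089) was listed at 0 in DB01 and DB03 and stood at 3.80 in DB10 and 4.30 in DB13, against 0 to 7.76 in globin-rich cells, 5 of 12 of which had it detected. Wild-type class B cells had Gata1 detected in 10 of 10, at 4.30 to 9.03, so that DB13 and the lowest wild-type cell met at 4.30. Klf1 (NM_010635), an activator of beta globin, was at 3.34, 4.82, 2.11 and 0 in DB01, DB03, DB10 and DB13, within the range of globin-rich cells of 0 to 9.57. Bcl11a (NM_001242934), a repressor of embryonic and fetal globin genes, was at 6.80, 4.31, 4.33 and 0.85 in the same cells, against a globin-rich median of 0 and a highest value of 5.95.

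**Figure D2:**
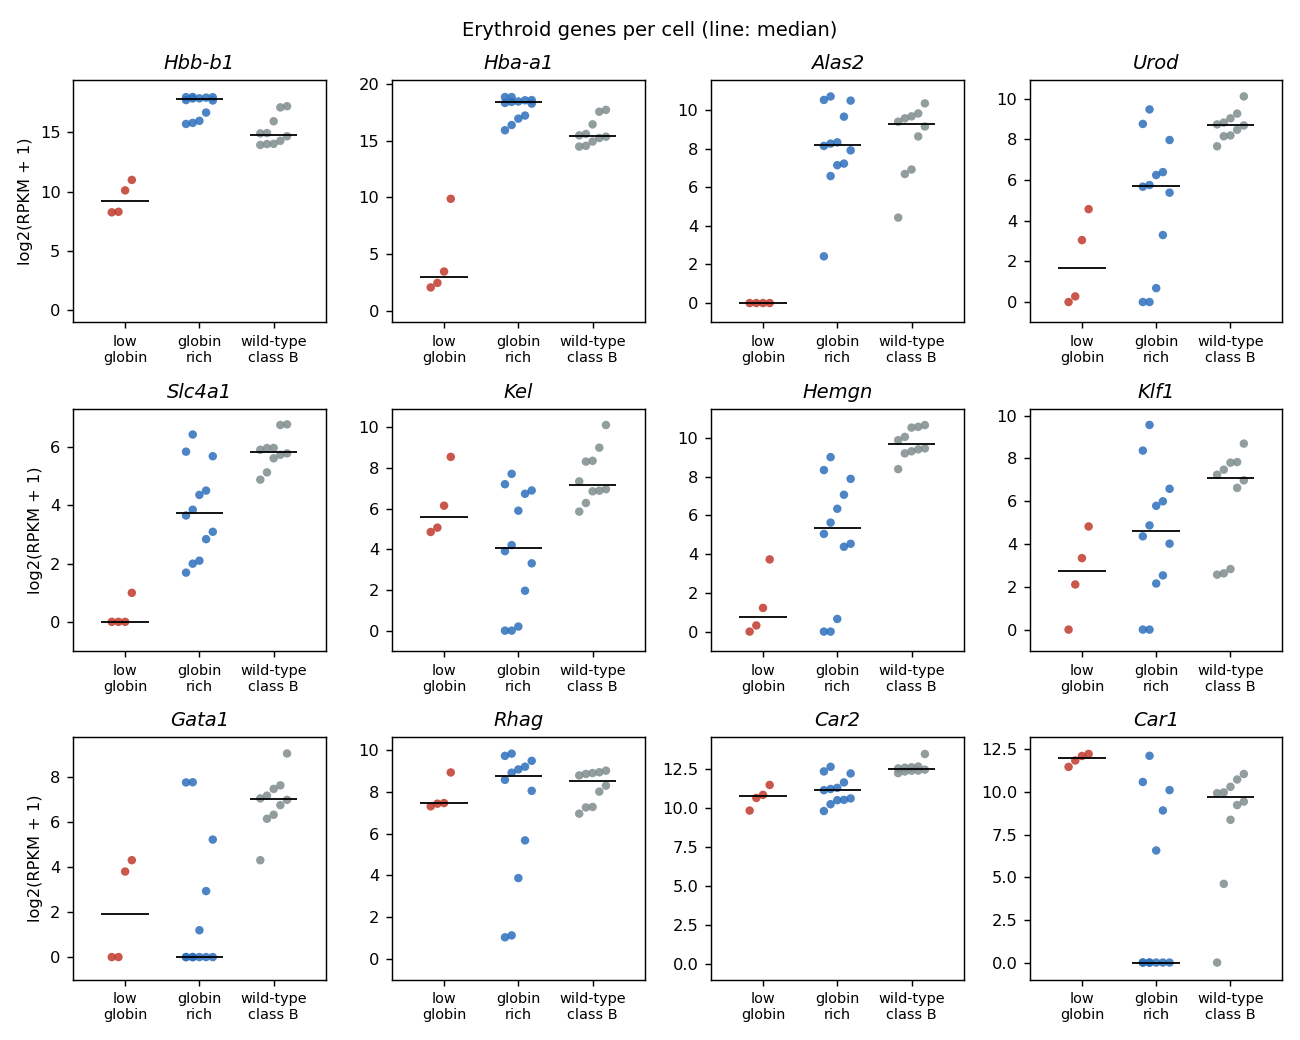
Levels in log2(RPKM + 1) of 12 erythroid genes, 1 point per cell, in 4 low-globin, 12 globin-rich and 10 wild-type class B cells, with a line at each median. Hbb-b1, Hba-a1, Alas2 and Slc4a1 do not overlap between low-globin cells and either other set, whereas Rhag overlaps with both and Car1 is high in all 4 low-globin cells.

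Over the erythroid marker list the median difference was below 0 in both comparisons. Of 21 kept markers 7 were called lower than in globin-rich cells (against 0.5% of all kept genes) and none higher. The median was -1.51. Against wild-type class B cells 9 were called lower (against 2.38% of all kept genes) and 1, Car1, higher, with a median of -3.50. The list holds Hbb-b1, on which the split was made, and Hbb-b2, which shares its reads, so the lower calls are partly set by the split. Hba-a1 and Hba-a2 in it stand for 1 signal. A second list, of other late erythroid genes, had medians of -1.25 and -1.05 over 20 kept members, with 4 above 0 in each comparison. Some single members were high. Car1 (NM_001083957), a carbonic anhydrase of red cells, was at 12.23 in DB01, 11.47 in DB03, 12.11 in DB10 and 11.84 in DB13, against 0 to 12.12 in globin-rich cells (median 0) and 0 to 11.06 in wild-type class B cells (median 9.68). All 4 low-globin cells lay above every wild-type class B cell, with a difference of 3.55, and the globin-rich cell DB11 reached their range. Car2 (NM_009801), a second carbonic anhydrase, was at 9.84 to 11.48 in low-globin cells, inside the globin-rich range and below every wild-type class B cell, with a difference of -1.87.

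Some blood group and related membrane genes were present. Rhag (NM_011269), a partner of the Rh proteins, was at 8.94, 7.32, 7.44 and 7.47 in DB01, DB03, DB10 and DB13, within the globin-rich range of 1.03 to 9.85. Rhd (NM_011270), Ermap (NM_013848) and Kel (NM_032540) were detected in all 4 low-globin cells, at 5.69 to 7.93, 4.82 to 7.38 and 4.85 to 8.54. The differences of these genes from globin-rich cells were 0.74 for Rhag, -0.67 for Rhd, 2.91 for Ermap and 2.15 for Kel, with overlapping cells in each case. The median of all kept genes in that comparison was 2.22. Tfrc (NM_011638), the transferrin receptor that brings in iron, was at 3.40, 5.42, 7.61 and 6.82 in the same order of cells, against 0 to 8.94 in globin-rich cells. The differences of Rhag and Tfrc change sign when cells are scaled to 1 sum without globins, to -0.56 and -0.97, and that of Rhd turns to 1.19 with 1 sum over all genes. Against wild-type class B cells the differences were all below 0. They were -0.45 for Rhag, -2.20 for Rhd, -0.66 for Ermap, -1.44 for Kel and -1.53 for Tfrc, where the median of all kept genes was 0.90.

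Markers of other marrow cells were few in the cell type lists. Low-globin cells had 13 to 17 of 23 erythroid markers detected, globin-rich cells 14 to 23 and wild-type class B cells 20 to 23. No low-globin cell had any of 22 monocyte and macrophage, 20 B cell or 13 eosinophil, basophil and mast cell markers detected. Of 21 neutrophil and granulocyte markers they had 2 or 3, which were Cxcr2, Csf3r and Mcl1, and globin-rich cells had 1 to 3, of the same 3 genes. The summed RPKM of that list was 43.0 to 62.6 in low-globin and 2.75 to 73.7 in globin-rich cells, and its granule and S100 protein genes were not detected in any of the 16 cells. Ptprc (NM_011210), the leukocyte common antigen CD45, was listed at 0 in all 16 cells. Of 43 leukocyte common genes 3 passed the filter, none was called, and all 3 lay above 0 in both comparisons, with medians of 3.62 and 3.21. Cyba (NM_001301284), a subunit of the phagocyte oxidase, was at 0, 4.65, 7.38 and 3.86 in DB01, DB03, DB10 and DB13 and detected in no globin-rich or wild-type class B cell. Cyba passed the filter only through the low-globin cells, so the sign of its difference from globin-rich cells was fixed. Srgn (NM_011157), a proteoglycan of granules, was detected in 4 of 4 low-globin cells, at 2.86 to 6.26, in 3 of 12 globin-rich cells and in 6 of 10 wild-type class B cells. Their part in the differences was not tested.

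Single genes of further lists were detected. Tcf4, of the dendritic cell list, was at 1.77, 3.46, 2.79 and 2.56 in DB01, DB03, DB10 and DB13 and was detected in no globin-rich cell. That list had 1 or 2 of 14 markers detected in low-globin cells, with a summed RPKM of 2.40 to 18.1, against 0 or 1 in globin-rich cells, with 0 to 7.89, and its part in the differences was not tested. Xbp1, of the plasma cell list, was detected in DB03, DB10 and DB13 and in 2 globin-rich cells. Lepr, of the stromal list, was detected in all 4 low-globin cells and in most globin-rich cells. Of the T and NK cell list Cd8b1 and Lat were detected in DB13, and of the megakaryocyte list Gp1ba in DB13.

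Of 12 stem and progenitor markers only Gata2 and Myb were detected in low-globin cells. Gata2 (NM_008090) stood at 5.05 in DB03 and 4.96 in DB13, and in 2 globin-rich cells at 5.58 and 6.22. Myb (NM_010848), a factor of dividing precursors, stood at 4.86 in DB01 and 3.67 in DB03 and was listed at 0 in all globin-rich and wild-type class B cells. Kit (NM_021099), the stem cell factor receptor, was below the detection limit in all 4 low-globin cells, with a highest level of 0.83 in DB01. Among globin-rich cells DB04 alone had monocyte and macrophage markers, 4 of 22, with Ms4a7 at 8.89 and Spic at 5.89, and it also held the only detected Hmox1 (NM_010442), the heme-degrading enzyme, at 6.67. Without DB04 the medians of the gene groups given below kept their signs.

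**Figure D3:**
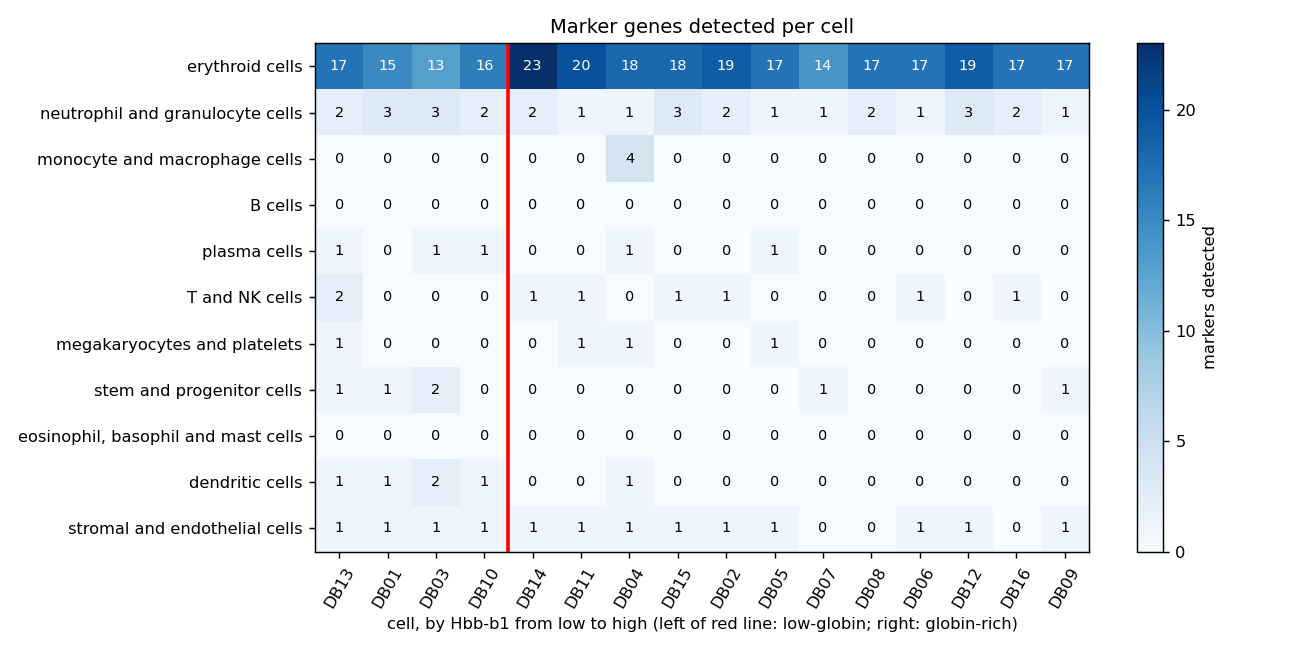
Number of marker genes detected (RPKM of at least 1) for 11 lists of marrow cell types in each Flvcr-deleted class B cell, ordered by Hbb-b1 with the 4 low-globin cells left of the red line and the 12 globin-rich cells right of it. Erythroid markers dominate in all 16 cells, and the 4 monocyte and macrophage markers are in DB04.

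Nucleolar and ribosome biogenesis factors process ribosomal RNA and assemble ribosomes. This list was added after the values were seen, so its counts describe it only. Of 40 kept members 18 were called higher than in globin-rich cells, 12 were called higher than in wild-type class B cells and none was called lower. Of all kept genes 4.62% and 6.67% were called higher. The medians were 5.05 and 3.08 against 2.22 and 0.90 for all kept genes. Npm1 (NM_001252261), the abundant nucleolar protein nucleophosmin, was at 10.34 in DB01, 11.12 in DB03, 10.68 in DB10 and 11.30 in DB13, against 0 to 9.40 in globin-rich cells (median 0) and 5.15 to 9.07 in wild-type class B cells (median 7.00). The differences were 7.85 and 4.01.

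Other members of that group behaved alike. Fcf1 (NM_028632), which cuts the precursor of small subunit RNA, was at 8.67 to 10.02 in low-globin cells, 0 to 8.39 in globin-rich cells and 0 to 8.33 in wild-type class B cells. Exosc8 (NM_027148), a subunit of the RNA exosome, was at 7.79 to 8.18 in low-globin cells, against highest values of 5.32 in globin-rich and 6.95 in wild-type class B cells. Nop2 and Rrp15, which act in large subunit assembly, were detected in 4 of 4 low-globin cells and in 0 of 12 globin-rich and 0 of 10 wild-type class B cells. Since no globin-rich cell had them detected, both could pass the filter only through the low-globin cells. The sign of their difference from globin-rich cells was therefore fixed.

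Ribosomal proteins showed a different order. Of 79 kept members 60 were called higher than in wild-type class B cells (against 6.67% of all kept genes), with a median of 2.26. Only 1, Rpl3, was called higher than in globin-rich cells (against 4.62% of all kept genes). The median there was 2.15, which is close to that of all kept genes. Against the 2 globin-rich cells with at least 2000 detected genes, DB14 and DB11, the ribosomal median was 0.06. Against wild-type class B cells scaled to 1 sum without globins it was 1.57. Rps6 (NM_009096), a small subunit protein, was at 10.08 to 10.59 in low-globin cells, 3.06 to 10.08 in globin-rich cells and 3.74 to 9.65 in wild-type class B cells.

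Chaperones had medians above those of all kept genes, with few calls. Of 19 kept heat shock and chaperone genes 2 were called higher than in globin-rich cells, Hspa8 and Hspd1, and 2 higher than in wild-type class B cells, Hspd1 and Hspe1, with medians of 4.98 and 1.95. Hspd1 (NM_010477), the mitochondrial chaperonin, was at 7.40 in DB01, 8.36 in DB03, 8.20 in DB10 and 6.79 in DB13. It was detected in 1 of 12 globin-rich cells, DB11 at 5.77, and in 5 of 10 wild-type class B cells, up to 5.23. Hspa8 (NM_031165), the constitutive cytosolic chaperone, was at 8.92, 11.67, 10.35 and 10.63 in the same order, against 0 to 8.46 in globin-rich cells, but its wild-type class B range of 0 to 11.02 overlapped.

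In glycolysis 2 of 8 kept genes, Ldha and Aldoa, were called higher than in globin-rich cells and Ldha alone higher than in wild-type class B cells. Ldha (NR_102727), a subunit of lactate dehydrogenase, was at 7.74 in DB01, 8.48 in DB03, 8.92 in DB10 and 8.03 in DB13, was listed at 0 in all 12 globin-rich cells and ranged from 0 to 7.36 in wild-type class B cells. Ldha thus passed the filter only through the low-globin cells. Aldoa (NM_001177308), which encodes aldolase, was at 7.08 to 8.00 in low-globin and 0 to 4.09 in globin-rich cells. Zeros in globin-rich cells were not limited to such genes: Ppia was at 0 in 6 of 12, Actg1 in 10, Gapdh in 3 and Actb in 2, so that a 0 there can be a missed transcript.

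Of 72 kept genes of oxidative phosphorylation, which makes ATP in mitochondria, 3 (Ndufs8, Sdha and Uqcrq) were called higher than in globin-rich cells, near the 4.62% of all kept genes, and 15 higher than in wild-type class B cells, where 6.67% of all kept genes were. The medians were 3.35 and 1.91. Sdha (NM_023281), a subunit of complex II, was detected in 4 of 4 low-globin cells, at 4.82 to 7.50, and was listed at 0 in all 12 globin-rich cells, while wild-type class B cells ranged from 0 to 7.95 and overlapped. Sdha thus passed the filter only through the low-globin cells. Uqcrq (NM_025352), a subunit of complex III, was at 8.35 to 9.26 in low-globin cells, 0 to 7.97 in globin-rich cells and 0 to 7.51 in wild-type class B cells. Against DB14 and DB11 alone the group median was 0.39, below the 0.50 of all kept genes.

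**Figure D4:**
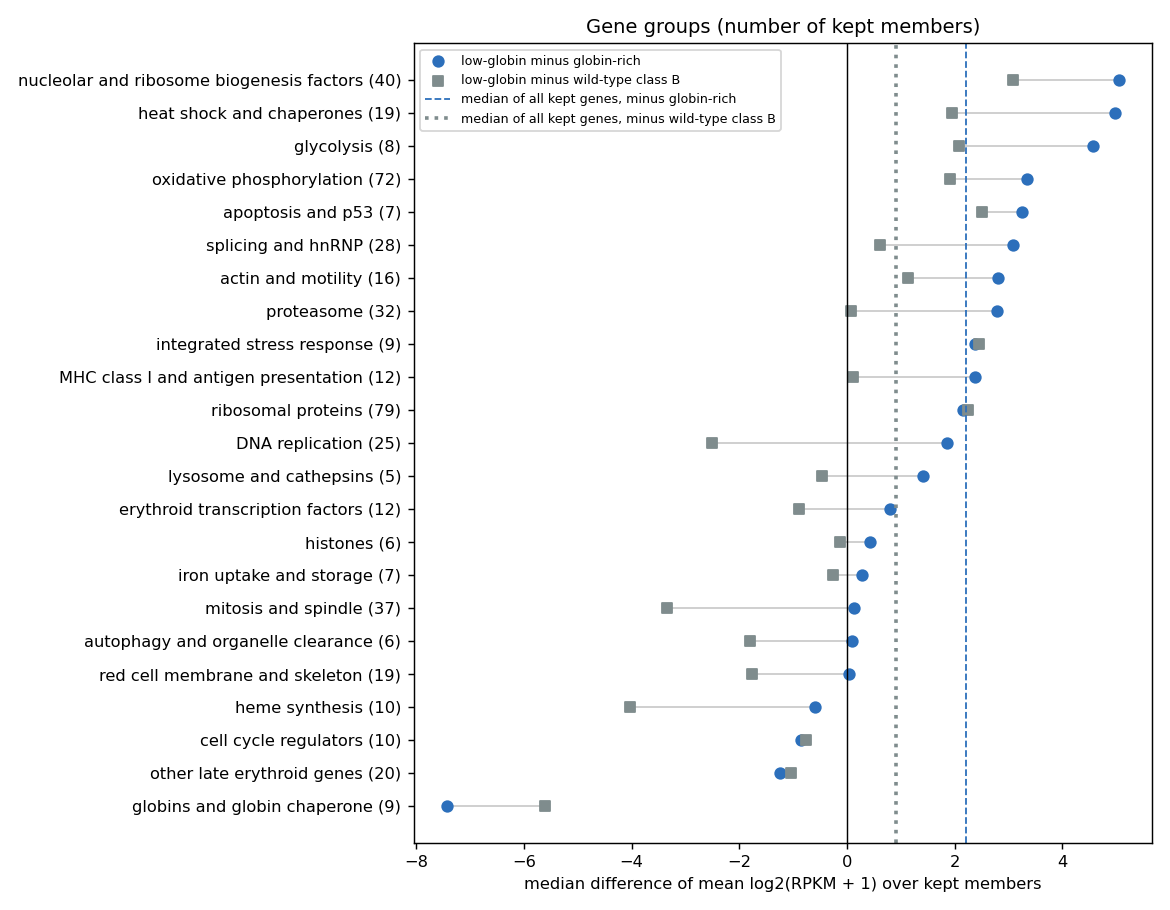
Median difference of mean log2(RPKM + 1) over the kept members of each gene group with at least 5 kept members, as low-globin minus globin-rich (circles) and low-globin minus wild-type class B cells (squares), with the number of kept members in parentheses and lines at the median of all kept genes. Nucleolar factors lie at 5.05 and 3.08, while mitosis genes lie at 0.14 and -3.35 and globins at -7.43 and -5.61.

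Metal-binding genes were high in all 4 low-globin cells. Mt1 (NM_013602), a metallothionein, a small protein that binds zinc and copper, was at 10.02 in DB01, 10.34 in DB03, 10.11 in DB10 and 9.86 in DB13, against 0 to 9.64 in globin-rich cells (median 0) and 0 to 7.22 in wild-type class B cells (median 0). Mt2 (NM_008630) was at 9.99, 8.15, 9.51 and 9.76 in the same order, against 0 to 10.03 in globin-rich and 0 to 5.30 in wild-type class B cells. In DB11 alone of the globin-rich cells both genes were near the low-globin levels, at 9.64 and 10.03. Nupr1 (NM_019738), a stress-induced nuclear protein, was at 3.47, 6.16, 5.24 and 2.56 in low-globin cells and listed at 0 in all 10 wild-type class B cells, but reached 8.19 in globin-rich cells. This group, too, was set up after the values were seen.

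**Figure D5:**
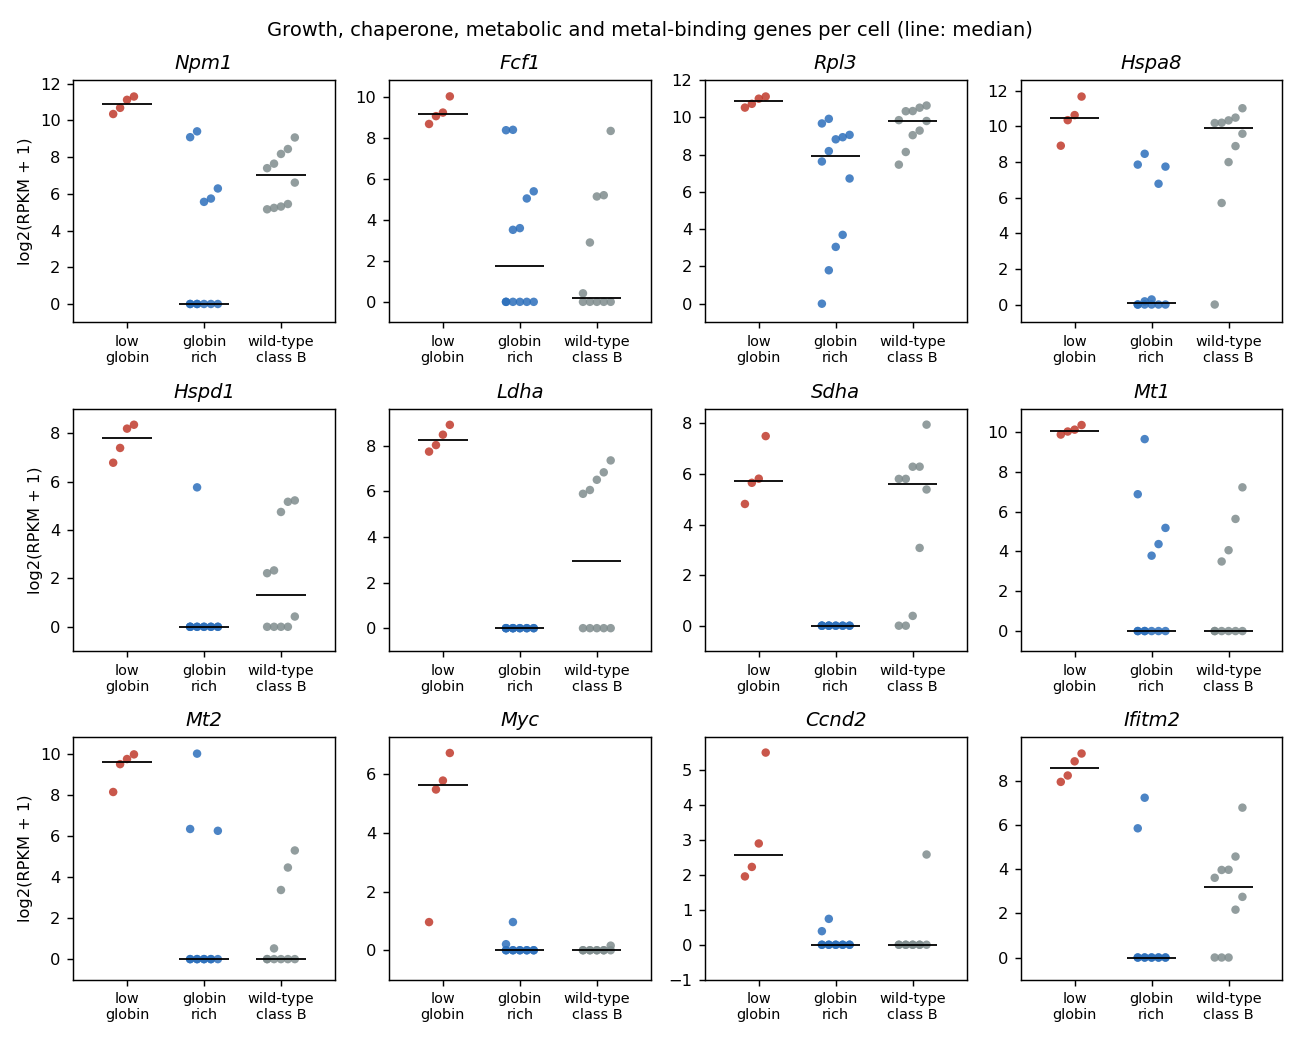
Levels in log2(RPKM + 1) of 12 genes of ribosome assembly, chaperones, metabolism, metal binding and growth, 1 point per cell, in 4 low-globin, 12 globin-rich and 10 wild-type class B cells, with a line at each median. Npm1, Ldha and Mt1 do not overlap between low-globin cells and either other set, and Myc is at 5.47 or more in 3 low-globin cells.

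Cell cycle regulators had differences of both signs. Of 10 kept members none was called against globin-rich cells and 1, Myc, was called higher than in wild-type class B cells, with medians of -0.86 and -0.76 and 4 of 10 above 0 in each. E2f2 (NM_001305399), a transcription factor of the cell cycle, was listed at 0 in all 4 low-globin cells and detected in 8 of 12 globin-rich and 9 of 10 wild-type class B cells. Cdkn2d (NM_009878), an inhibitor of cyclin-dependent kinases, was also at 0 in all 4 and was detected in 4 of 12 and 6 of 10. Myc (NM_001177353), a transcription factor that drives growth and ribosome synthesis, was at 0.96 in DB01, 6.72 in DB03, 5.78 in DB10 and 5.47 in DB13, and its highest values were 0.96 in globin-rich and 0.16 in wild-type class B cells. It was called higher than in wild-type class B cells only, since DB01 met the highest globin-rich cell, DB15, at 0.96. Myc was detected in 3 of 4 low-globin cells, as the level in DB01 lay below the detection limit. With 0 of 12 globin-rich cells detected, it passed the filter only through the low-globin cells. Ccnd2 (NM_009829), a cyclin of the first gap phase, was at 5.51, 2.23, 1.96 and 2.91 in the same order and did not pass the filter. It was detected in 0 of 12 globin-rich cells and in 1 of 10 wild-type class B cells, at 2.59. Cdk4 (NM_009870), the kinase partner of that cyclin, was at 4.41, 5.61, 8.25 and 7.97 (median 6.79), with a globin-rich median of 0 and a highest value of 5.11. Wild-type class B cells had Cdk4 detected in 7 of 10, at 0 to 8.72 with a median of 6.76, close to that of low-globin cells.

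Part of the mitosis genes and a smaller part of the DNA replication genes were called lower than in wild-type class B cells, and none was called against globin-rich cells. Of 37 kept mitosis and spindle genes 14 were called lower than in wild-type class B cells (against 2.38% of all kept genes) and none higher. The medians were -3.35 against wild-type class B cells and 0.14 against globin-rich cells, and the second turned to -0.47 with 1 sum without globins. Mki67 (NM_001081117), a mark of cycling cells, was at 0.06 in DB01, 2.98 in DB03, 4.91 in DB10 and 0.14 in DB13, against 0 to 7.69 in globin-rich cells (median 5.23) and 5.27 to 8.53 in wild-type class B cells (median 7.39). DB03 and DB10 had more of these transcripts than DB01 and DB13 for Mki67, and likewise for Top2a (NM_011623), a topoisomerase of dividing cells, at 5.37 and 5.51 against 0.75 and 1.43. Of 25 kept replication genes 3 were called lower than in wild-type class B cells (against 2.38% of all kept genes). Their median in that comparison was -2.52, with 5 above 0. Against globin-rich cells the median was 1.86, which turned to -0.21 against DB14 and DB11.

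The remaining lists differed in their calls. Of 9 kept integrated stress response genes 1 was called higher than in globin-rich cells and 3 higher than in wild-type class B cells. Of 7 kept apoptosis and p53 genes 2 were called higher and 1 lower than in wild-type class B cells. None of these 7 was called against globin-rich cells. Of all kept genes 4.62% and 6.67% were called higher in the 2 comparisons, and 2.38% lower than in wild-type class B cells. None of 32 kept proteasome genes, 7 genes of iron uptake and storage or 6 autophagy genes was called in either comparison. Of 16 kept actin and motility genes 3 (Actb, Actg1 and Msn) were called higher than in globin-rich cells (against 4.62% of all kept genes), with a median of 2.82. H2-K1 of 12 kept MHC class I genes and Hnrnpk of 28 splicing genes were called higher than in globin-rich cells.

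Further genes called higher included Ifitm2. Ifitm2 (NM_030694), an interferon-induced membrane protein, was at 8.88, 8.24, 7.95 and 9.23 in DB01, DB03, DB10 and DB13, against 0 to 7.23 in globin-rich and 0 to 6.78 in wild-type class B cells. Rangrf (NM_001285442), a Ran-binding factor, was at 9.08, 7.35, 7.64 and 8.84 in the same cells, was listed at 0 in all 12 globin-rich cells and reached 0.45 in wild-type class B cells. Rangrf thus passed the filter only through the low-globin cells. Ppia (NM_008907), which encodes cyclophilin A, was at 11.85 to 12.07 in low-globin cells, 0 to 10.91 in globin-rich cells and 0.57 to 9.95 in wild-type class B cells. Ppa1 (NM_026438), an inorganic pyrophosphatase, was at 6.80 to 8.23 in low-globin cells, with highest values of 3.01 in globin-rich and 4.07 in wild-type class B cells.

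The globin-rich cells were not uniform, and those with the least Hbb-b1 held part of the transcripts of the low-globin cells. Car1 was at 10.11 in DB14, 12.12 in DB11, 8.91 in DB04 and 10.59 in DB15, the 4 globin-rich cells with the lowest Hbb-b1, and at 6.57 in DB05, and it was at 0 in the other 7. Npm1 was at 9.08, 9.40, 6.29 and 5.56 in the same 4 cells and at 5.74 in DB12, and at 0 in the rest. DB11 combined Hbb-b1 at 15.79 and Hba-a1 at 15.91 with Car1 at 12.12 and with the lowest Alas2 of the globin-rich cells, 2.42. The same 4 cells had the most detected genes of the globin-rich set, 1296 to 2294, so their levels and the depth of non-globin transcripts cannot be told apart.

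Each low-globin cell also had transcripts that no other Flvcr-deleted class B cell held at the detection limit: 206 genes in DB01, 409 in DB03, 322 in DB10 and 368 in DB13. The highest of these included Stard5, at 8.65 in DB01, and Egr1, an immediate early gene, at 7.52 in DB03. Fos, another immediate early gene, was at 4.43 in DB03 and 3.31 in DB10 and listed at 0 in all globin-rich and wild-type class B cells.

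As a description of likeness, Spearman's rho over the 2400 genes was 0.43 to 0.55 among the 6 pairs of low-globin cells. Its median was 0.35 among globin-rich cells, 0.17 between low-globin and globin-rich cells and 0.33 between low-globin and wild-type class B cells. It was 0.38 between low-globin and wild-type class A cells, and 0.34 between low-globin cells and class B cells of mice treated with erythropoietin (EPO). Only the Flvcr-deleted cells share the chip of the low-globin cells, and the wild-type and EPO-treated cells were on other chips. Chip and group therefore cannot be told apart in these values. The cells also differ in genes detected, which enter rho. The cell with the highest mean rho to the low-globin cells, 0.53, was DA8a, a Flvcr-deleted class A cell with Hbb-b1 at 11.97, Alas2 at 0, Car1 at 10.69 and Mt1 at 10.75. The next, at 0.51, was WA6, a wild-type class A cell with Hbb-b1 at 0.65, Alas2 at 0, Car1 at 12.39, Npm1 at 10.23 and Myc at 7.72. The following cells, TB5 and TB7, were class B cells of EPO-treated mice, both at 0.48, with Hbb-b1 at 12.83 and 14.24.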

How the data were processed

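The data were 16 single-cell libraries of Flvcr-deleted class B cells, with 10 wild-type class B cells beside them, out of 127. A microfluidic chip captured and imaged the cells, SMART-Seq chemistry amplified their cDNA and Nextera XT made the libraries, per the labels' protocols. The authors deposited RPKM values in 1 table of 34898 transcript rows and 24320 gene symbols. The submitters' processing notes name TopHat2 2.0.9 and the mouse build mm9. How reads were counted, which total the per-million scaling used, how multiply mapped reads were treated and whether cells were filtered is not given in the sources used here. No doublet caller was run. The table also holds 4 columns that match no sample, which were left out.

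For each symbol the row with the highest mean RPKM over all cells was used, since 5556 symbols had several. Levels are log2(RPKM + 1), a scale that understates differences of low genes. Reads per cell were estimated from the most common length-corrected value above 0 in each cell, taken as that of 1 read. The lengths were those of GENCODE M21 for 97.6% of rows, and the estimates are approximate. Shares of cells have exact 95% intervals, which cover counting error only. Values were handled with Python 3.11.15, pandas 2.3.3 and numpy 2.4.6, and the calls were tested on simulated data. Replicate numbers name cells and pair nothing. The members, the 41 gene lists and the rules were chosen with earlier results of these data known, and 2 of the lists were added after the values were seen. Named are the 15 largest differences in each direction among called genes, up to 4 members of each list, the 8 highest genes found in 1 low-globin cell only, markers detected in low-globin cells and a short list of erythroid genes, and the text gives part of these. Beyond that rule, Top2a, Mki67, Rps6, Nop2, Rrp15, Fos, Uqcrq, Rhag, Rhd, Kel, Urod, Car2, Ms4a7 and Spic were singled out after their values were seen. Alternatives were 2 pseudocounts, 2 filters, summed rows, 2 scalings, medians, a split at 13, fewer or other cells to compare with, and leaving out each low-globin cell. Some genes that the rule names are not reported here.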

Additional observations from a re-analysis of the deposited data

Results flagged for a closer look

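Among the 4 low-globin cells, 58 measures were checked for a cell that lies far from the other 3, and 5 had one. The limit used is one that chance passes in about 1 of 20 groups of continuous values, and its rate for values with many zeros, as here, was not tested. DB10 alone had Hbb-bh1 above 0, at a level of 3.70, with the other 3 listed at 0. DB03 alone had Slc4a1 above 0, at 0.996. DB01 stood above the others in Rhag, at 8.94. DB10 stood below the others in Rpl4, at 10.53, a gap of little size. DB10 alone had Prc1 above 0, at 0.36. DB10 is also the low-globin cell with the highest Hbb-b1 and Hba-a1 levels, 10.99 and 9.87.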

How the results depend on the processing

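No paired analysis was possible because no test was made and the replicate numbers only name cells. Over 18 alternatives, 812 gene differences stayed within the spread between cells, 158 moved beyond it and 2 reversed, and 302 group medians stayed, 153 moved and 10 reversed. A change of sign counted as reversed only for called genes and for group medians of at least 1 in size. Other changes of sign were counted as stayed or moved. Among them Kel went from 2.15 to -1.44 against wild-type class B cells. Nupr1 went from 2.39 to -2.21 against the 2 globin-rich cells with at least 2000 detected genes. Higher genes (111) numbered 173 with no filter, 366 with every cell scaled to 1 sum, 278 against the 2 globin-rich cells with at least 2000 detected genes and 142 to 184 with 1 low-globin cell left out. Lower genes (12) numbered 20 against the 6 globin-rich cells with at least 1000 detected genes, 131 against the 2 cells, 57 against wild-type class B cells, 88 against those scaled to 1 sum without globins, and 11 to 12 with 1 low-globin cell left out. The median difference of kept genes (2.22) was 3.51 and 1.02 with pseudocounts of 0.1 and 10, 0.81 with no filter, 3.40 with 1 sum, 1.47 with 1 sum without globins, 2.82 with medians over cells, 1.52 and 0.50 against globin-rich cells with at least 1000 and 2000 detected genes, 0.90 against wild-type class B cells, 0.36 against those scaled to 1 sum without globins and 2.09 to 2.38 with 1 cell left out. With 1 sum, Cd24a turned to 0.41 and Gpx1 to 0.79. The lysosome and cathepsins median (1.41) ranged from -0.18 (without DB10) to 1.04 with 1 cell left out and turned to -0.47 against wild-type class B cells, -0.33 against the 2 globin-rich cells and -0.92 against scaled wild-type class B cells. The DNA replication median (1.86) turned to -2.52, -0.21 and -3.10 against these same 3 sets. Against scaled wild-type class B cells MHC class I turned to -0.13, splicing and hnRNP to -0.12 and proteasome to -0.46. The cause was not tested. Leaving out DB04, the comparison with the 2 cells and the scaled wild-type comparison were chosen after seeing the data. Depth limits what a 0 means: globin-rich cells had as few as 645 detected genes.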
